A study of Mus musculus with 34 samples.

Results

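The genes encoding the enzymes and cofactors that write, read and erase the histone marks of active enhancers were followed through brown adipogenesis. The group was fixed by name and not by expression. It holds 8 genes of the 23109 in the tables: the H3K4 methyltransferases *Kmt2c*, *Kmt2d* and *Kmt2b*, their partner *Paxip1*, the acetyltransferases *Ep300* and *Crebbp*, the Mediator subunit *Med1* and the H3K4 demethylase *Kdm1a*. All 8 were found, and each was measured by its RefSeq transcript with the highest mean RPKM, a read count scaled to transcript length and sequencing depth. The cells were brown preadipocytes from newborn C57BL/6J mice immortalized with SV40T, so every group shares the SV40T transgene. The sample labels call them GR-flox/flox cells infected with retroviral Vec or Cre, without saying which of these each library had, whereas the methods describe WT mice. In the first experiment the cells expressed retroviral FLAG-tagged histone H3.3, either WT or carrying K36M, a lysine to methionine change that inhibits H3K36 methyltransferases, and RNA was collected at D0, D2 and D7 of adipogenesis. In the second, the same WT or K36M cells also carried retroviral PPARγ and received DMSO, labelled 0 h, or the PPARγ ligand rosiglitazone (Rosi), labelled 24 h. The PPARγ cells were treated as sub-confluent preadipocytes. In the *Nsd2* experiment, cells carried lentiviral control (Ctrl) or *Nsd2* knockdown (KD) shRNA and were collected at D0 and D2. Cells with the histone constructs were selected with puromycin and those with PPARγ with hygromycin. Adipogenesis was induced with insulin, T3, IBMX, dexamethasone and indomethacin. From D2 on, the medium held only insulin and T3 of these, so the D2 to D7 comparisons span this change of medium. The 14 RNA-Seq libraries hold 1 per condition, so no difference below has a replicate check or a test, and the 20 ChIP-Seq samples were not analysed here.

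At enhancers, KMT2C and KMT2D place the monomethyl mark on lysine 4 of histone H3 (H3K4me1), as the catalytic subunits of related complexes that contain PAXIP1. EP300 and CREBBP then acetylate lysine 27 (H3K27ac), and Mediator, which nuclear receptors contact through MED1, links the enhancer to RNA polymerase II. KMT2B acts mainly at promoters, and KDM1A removes methyl groups from H3K4. In preadipocytes, C/EBP factors and PPARγ bring such coactivators to enhancers of adipocyte genes. NSD2 methylates H3K36, and the question here was how the mRNA levels of the enhancer enzymes themselves compared when cells differentiated, met a PPARγ ligand, or had H3K36 methyltransferases inhibited or depleted.

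*Kmt2c* and *Kmt2d* encode paralogous enzymes of the same kind, and of these only *Kmt2c* differed over 2-fold in any of the 17 comparisons made below. The sequences just upstream of their starts are shown side by side, and a link between sequence and mRNA level was not tested. *Kmt2c* lies on the minus strand at chr5:24777612-25004601 and *Kmt2d* on the minus strand at chr15:98662100-98701614 (GENCODE M1 genes, mm9), and their transcripts are NM_001081383 and NM_001033276. Of the other genes, *Ep300* (NM_177821) at chr15:81415781-81482507 is on the plus strand. On the minus strand are *Kmt2b* (NM_029274) at chr7:31353877-31373745, *Paxip1* (NM_018878) at chr5:28067207-28117879, *Crebbp* (NM_001025432) at chr16:4084048-4213404, *Med1* (NM_013634) at chr11:98013468-98054607 and *Kdm1a* (NM_133872) at chr4:136106455-136158638. The 250 bases before each RefSeq start (GRCm38.p6, 5′ to 3′ on the gene's strand) are at chr5:25498784-25499033 for *Kmt2c* and chr15:98871206-98871455 for *Kmt2d*, and the capitals mark each CpG dinucleotide.
Kmt2c: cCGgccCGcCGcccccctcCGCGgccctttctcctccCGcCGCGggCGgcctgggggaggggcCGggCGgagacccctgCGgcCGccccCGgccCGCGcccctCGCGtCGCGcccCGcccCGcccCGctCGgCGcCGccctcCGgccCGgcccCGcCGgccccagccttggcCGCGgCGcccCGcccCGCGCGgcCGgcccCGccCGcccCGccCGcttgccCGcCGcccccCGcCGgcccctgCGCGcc
Kmt2d: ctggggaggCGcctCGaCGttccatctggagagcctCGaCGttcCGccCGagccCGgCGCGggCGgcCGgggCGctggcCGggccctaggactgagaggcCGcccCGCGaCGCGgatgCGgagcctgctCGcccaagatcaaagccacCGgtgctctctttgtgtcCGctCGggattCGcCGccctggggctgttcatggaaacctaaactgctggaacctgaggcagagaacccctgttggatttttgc
The *Kmt2c* window held 48 CpG dinucleotides and was 91.6% G or C, whereas the *Kmt2d* window held 26 and was 67.6% G or C. Over all 32851 promoters of the table the medians were 6 and 52.4%, and 0.146% of the promoters had more CpG than *Kmt2c* and 8.56% more than *Kmt2d*. Of the 8 genes, 7 had a window in the table. The other windows held 44 CpG for *Crebbp* (84.0% G or C), 25 for *Ep300* (73.2%), 22 for *Paxip1*, 21 for *Kdm1a* and 18 for *Med1*. Searched on both strands, the C/EBP motif TTGCNNAA and the PPARγ and RXR direct repeat AGGTCANAGGTCA had no match in any of the 7 windows, and 9.56% and 0.0335% of all promoters hold them. The nuclear receptor half-site AGGTCA, which the direct repeat contains, was found once, in the *Kdm1a* window with its first base at position -115 from the start, and 14% of all promoters hold it.

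Each library had between 12213559 and 24365867 mapped reads, and the 8 genes were covered by at least 453 reads in every library. Intervals given in parentheses are 95% Clopper-Pearson intervals on the log2 ratio of 2 libraries, or normal approximations of the same error for a difference between 2 such ratios. They hold the error of counting reads and nothing else, so they describe a pair of libraries and not the conditions. Ctrl cells had an *Nsd2* RPKM of 19.9 on D0 and 29.0 on D2, and KD cells 5.85 and 7.01. The summed RPKM of 5 adipocyte markers on D0, D2 and D7 was 42.0, 3576 and 3463 for WT and 21.2, 1596 and 196 for K36M cells. Under DMSO and Rosi it was 125 and 3050 in WT cells carrying PPARγ, and 76.0 and 1205 in the K36M counterparts. Ctrl cells had 16.6 at D0 and 1385 at D2, and KD cells 8.94 and 39.4. *Fabp4* made up most of the larger sums, with 3249 at WT D2 and 2644 at WT D7, and the markers did not move together. From D2 to D7 in WT cells *Adipoq* went from 6.16 to 287, *Plin1* from 36.8 to 144 and *Cidec* from 138 to 236. *Lipe* went from 145 to 152. At D2, *Adipoq* was higher in K36M (10.6) than in WT cells, whereas *Fabp4*, *Plin1*, *Cidec* and *Lipe* were lower. The summed RPKM of 4 preadipocyte markers ranged from 36.1 to 620. On D0, D2 and D7 it was 325, 54.7 and 284 in WT and 131, 129 and 620 in K36M cells. Ctrl cells had 193 on D0 and 37.7 on D2, and KD cells 224 and 36.1. These markers differed in direction too. At D0 *Dlk1* was 171 in KD against 38.1 in Ctrl cells, whereas *Pdgfra* (1.51 against 22.9), *Pdgfrb* (25.4 against 64.0) and *Ly6a* (25.9 against 67.7) were lower. Of the brown adipocyte markers, *Ucp1* stayed at or below 0.194 and *Cidea* at or below 0.0973 in all 14 libraries, so the defining brown markers were near 0, while *Ebf2* ranged from 3.16 to 25.4 and *Prdm16* from 0.180 to 3.36. Macrophage and endothelial markers summed to at most 3.07 and 2.17, and among muscle markers *Acta1* reached 67.5 while *Myod1*, *Myog* and *Myf5* stayed at or below 0.0932. In such bulk libraries, fewer cells of a type and less RNA per cell cannot be told apart.

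*Ep300* and *Kdm1a* had the highest levels of the 8 genes and *Kmt2c* the lowest (plot of RPKM by library). *Ep300* ranked first in 8 libraries and *Kdm1a* in the other 6, and *Kmt2c* ranked last in all 14. The mean RPKM over the libraries was 21.8 for *Kdm1a*, 21.2 for *Ep300*, 16.1 for *Kmt2d*, 15.1 for *Crebbp*, 13.0 for *Med1*, 12.4 for *Paxip1*, 9.46 for *Kmt2b* and 4.80 for *Kmt2c*. For comparison, the median gene among those reaching an RPKM of 1 had between 8.40 and 10.8, depending on the library. Neighbours in this order often could not be separated. At WT D7, for example, the counting intervals of *Crebbp*, *Kmt2d*, *Kdm1a* and *Med1* formed an overlapping chain. The range over the libraries was widest for *Kmt2c*, whose highest RPKM was 6.68-fold its lowest, and narrowest for *Kmt2b*, at 1.52-fold.

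**Figure D1:**
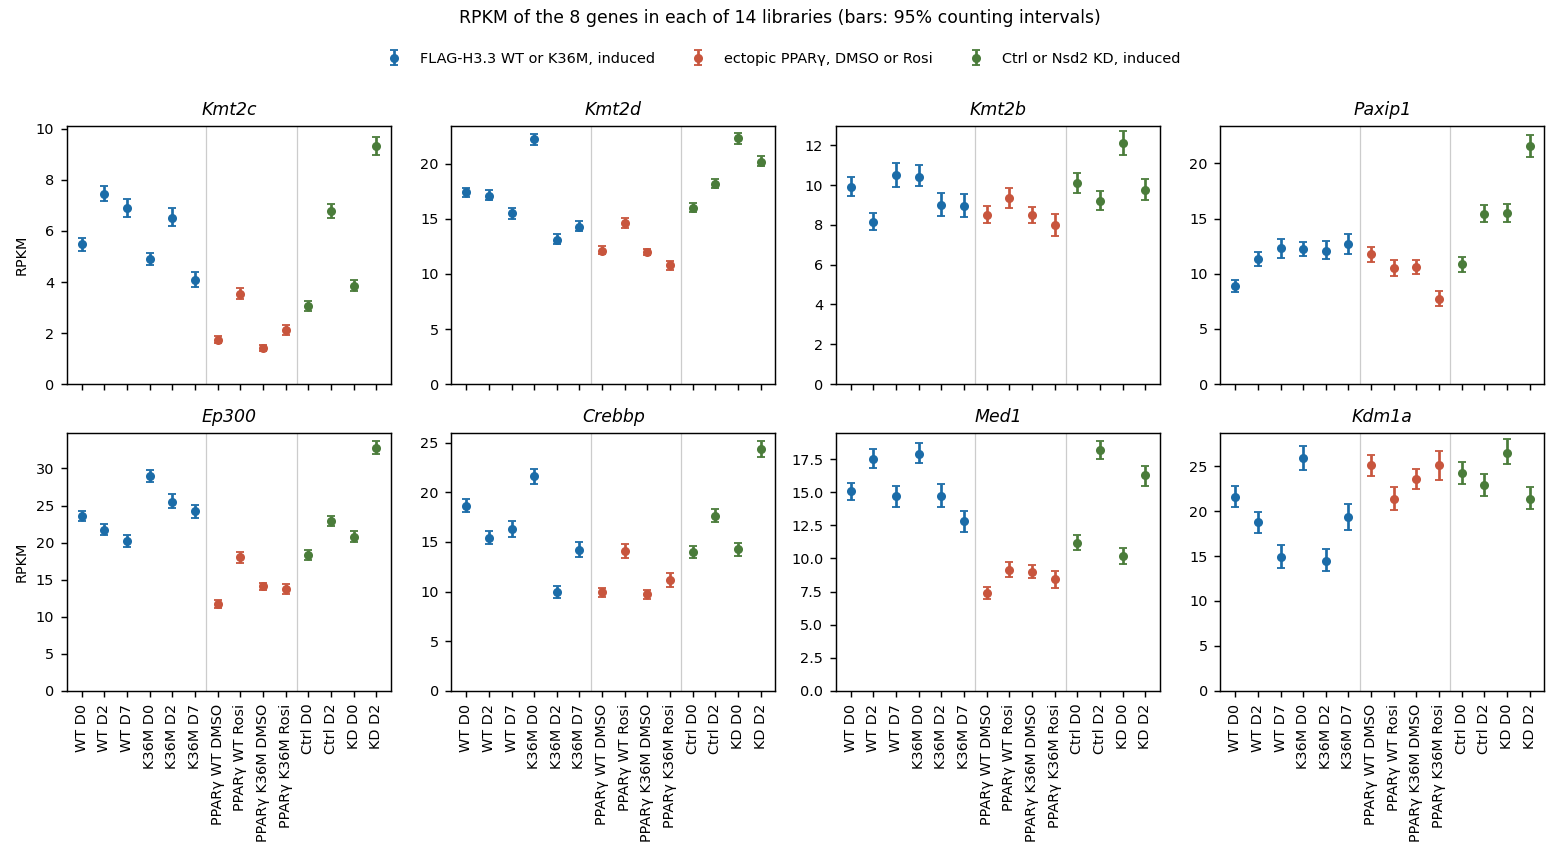
RPKM (vertical axes, from 0) of the 8 genes in each of the 14 libraries, 1 point per library, coloured by experiment, with 95% counting intervals as bars. *Kmt2c* runs from 1.4 to 9.33 and is at or below 3.55 in the 4 libraries with ectopic PPARγ, whereas *Kmt2b* stays between 7.98 and 12.1.

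In each comparison 0 or 1 of the 8 genes differed over 2-fold, beside 8.20% to 28.6% of all genes. A gene was compared as the RPKM of the later, treated or perturbed library over that of the other, without pseudocount. The background was every gene that reached an RPKM of 1 in either library. It thus included genes at lower levels than these 8, and no share matched for level was taken. With 8 genes, 1 gene is already 12.5%, so counts of 0 or 1 cannot place the 8 genes below the background. The background's median log2 ratio lay within 0.1 of 0 apart from 4 comparisons. These were -0.24 and -0.14 for Ctrl against WT at D0 and D2, 0.12 for K36M against WT at D7 and -0.11 with Rosi. From D0 to D2 in WT cells, 0 of 8 differed over 2-fold beside 26.7% of 12155 genes, and 0 over 1.5-fold beside 44.3%. From D2 to D7 in WT cells, 0 of 8 differed over either fold, beside 20.8% and 38.4% of genes. In K36M cells, 1 of 8 (12.5%), *Crebbp*, differed over 2-fold from D0 to D2 beside 21.5% of genes, and 3 over 1.5-fold beside 42.3%. From D2 to D7 in K36M cells the counts were 0 over 2-fold beside 22.7% and 1 over 1.5-fold, *Kmt2c*, beside 41.2%. In Ctrl cells, 1 of 8, *Kmt2c*, differed over 2-fold from D0 to D2 beside 27.4%, and 2 over 1.5-fold beside 48.3%. In KD cells it was again 1 of 8, *Kmt2c*, beside 28.6%, and 4 over 1.5-fold beside 50.5%.

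The other comparisons had 0 or 1 of the 8 genes over 2-fold. K36M against WT cells had 0 of 8 over 2-fold at D0, D2 and D7, beside 11.4%, 15.6% and 20.2% of genes. Over 1.5-fold there were 0 at D0 beside 24.8%, 1 at D2, *Crebbp*, beside 29.9%, and 1 at D7, *Kmt2c*, beside 37.3%. With Rosi, *Kmt2c* was over 2-fold in WT cells, 1 of 8 beside 15.0%, and *Kmt2c* and *Ep300* were over 1.5-fold beside 33.1%. That 2-fold count, at 2.04-fold, became 0 with a pseudocount of 0.1 or 1, after rescaling by the median ratio and relative to genes of like length. In K36M cells the Rosi counts were 0 beside 16.8% and 1, *Kmt2c*, beside 36.1%. K36M against WT cells with PPARγ had 0 over either fold with DMSO, beside 8.20% and 15.2%, and with Rosi 0 over 2-fold beside 19.1% and 1 over 1.5-fold, *Kmt2c*, beside 37.7%. KD against Ctrl cells had 0 over either fold, beside 17.4% and 34.1% at D0 and 14.4% and 32.1% at D2. Between the unperturbed populations of the time course and the *Nsd2* experiment, Ctrl against WT, 0 of 8 were over 2-fold at D0 and D2 beside 22.2% and 11.2%, and *Kmt2c* alone was over 1.5-fold at D0 beside 45.2% and none at D2 beside 25.4%.

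**Figure D2:**
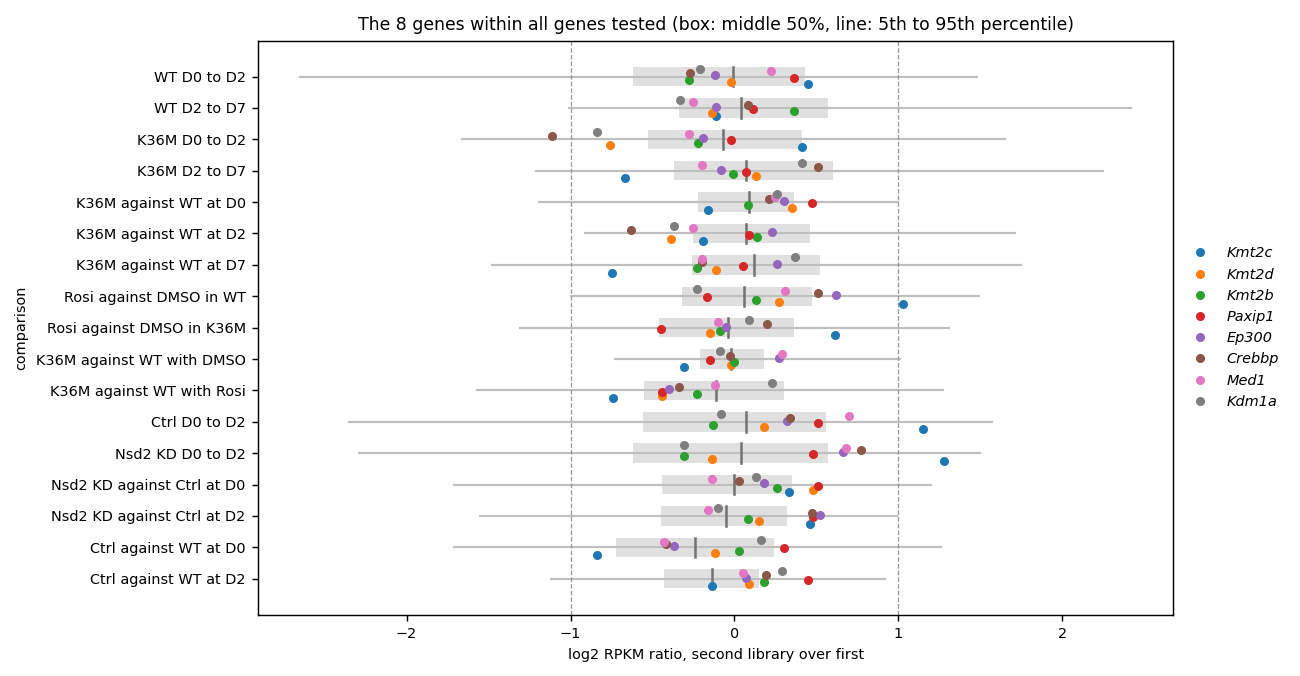
Log2 RPKM ratio (horizontal axis) in each of the 17 comparisons (rows), with the 8 genes as coloured points over all genes tested, drawn as the middle 50% (box), the median (tick) and the 5th to 95th percentile (line). In all, 4 points lie beyond the dashed 2-fold lines: *Crebbp* from D0 to D2 in K36M cells, and *Kmt2c* with Rosi in WT cells and from D0 to D2 in Ctrl and KD cells. The Rosi point lies within the lines under 4 of the other settings tried, the Ctrl point with a pseudocount of 1 and the *Crebbp* point relative to genes of like length.

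*Kmt2c*, the H3K4 monomethyltransferase with the lowest mRNA of the group, was higher at D2 than at D0 and with PPARγ ligand than without it in every population. WT cells had an RPKM of 5.47, 7.46 and 6.90 on D0, D2 and D7, and K36M cells 4.89, 6.52 and 4.09. Ctrl cells had 3.07 on D0 and 6.78 on D2, and KD cells 3.85 and 9.33. Under ectopic PPARγ, WT cells had 1.74 without and 3.55 with Rosi, and K36M cells 1.4 and 2.13. The D2 level was thus above the D0 level in all 4 populations, and the Rosi level above the DMSO level in both. As a log2 ratio the D0 to D2 difference was 0.45 (0.36 to 0.53) in WT, 0.41 (0.31 to 0.52) in K36M, 1.15 (1.04 to 1.25) in Ctrl and 1.28 (1.18 to 1.38) in KD cells. It was therefore over 2-fold in Ctrl and KD cells, though with a pseudocount of 1 no longer in Ctrl cells. Ctrl cells were 1.79-fold below WT cells at D0 and 1.10-fold below at D2. The Rosi difference was 1.03 (0.89 to 1.18) in WT cells, at the edge of 2-fold, and 0.61 (0.42 to 0.79) in K36M cells.

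*Kmt2c* is also one of the longest transcripts measured, at 16820 bases, and genes of like length differed with Rosi too. The 200 genes nearest to it in length had a median log2 ratio of 0.42 with Rosi in WT cells, against 0.06 over all genes, and of -0.16 in K36M cells. Relative to these neighbours the *Kmt2c* difference was 0.61 in WT and 0.77 in K36M cells, so it stayed above 0 in both, was below 2-fold, and no longer ranked WT above K36M. For D0 to D2 the same subtraction left 0.61 in WT, 0.63 in K36M, 1.12 in Ctrl and 1.00 in KD cells. The part of transcript length in the Rosi ratios was not tested.

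**Figure D3:**
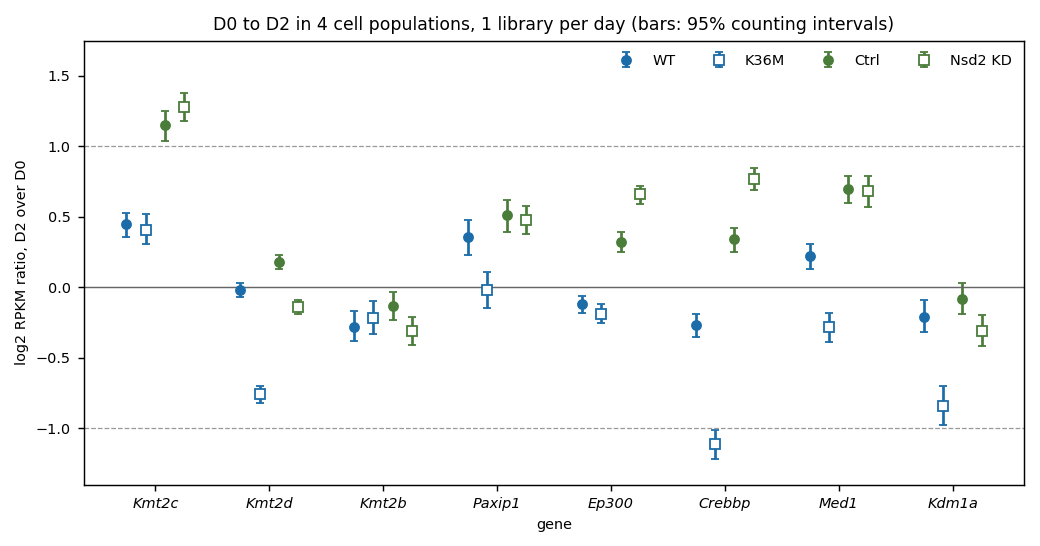
Log2 RPKM ratio of D2 over D0 (vertical axis) for each of the 8 genes in WT, K36M, Ctrl and *Nsd2* KD cells, 1 library per day, with 95% counting intervals as bars and dashed lines at 2-fold. *Kmt2c* lies above 0 and *Kmt2b* below 0 in all 4 populations, while *Ep300* and *Crebbp* lie below 0 in WT and K36M and above 0 in Ctrl and KD cells. Relative to genes of like length, *Kmt2b* (0.02) and *Ep300* (0.04) in K36M cells come to lie just above 0 and *Ep300* in WT cells at 0.00.

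Between cell populations, *Kmt2c* was lower in K36M than in WT cells in all 5 pairs of libraries and higher in KD than in Ctrl cells in both pairs. The log2 ratio of K36M to WT was -0.16 (-0.26 to -0.07) at D0, -0.19 (-0.29 to -0.10) at D2 and -0.75 (-0.88 to -0.63) at D7. It was -0.31 (-0.48 to -0.15) with DMSO and -0.74 (-0.90 to -0.58) with Rosi. The D7 difference, 1.69-fold, stood beside a median of 0.10 for genes of like length, whereas the Rosi difference stood beside one of -0.57, which leaves -0.17. The ratio of KD to Ctrl cells was 0.33 (0.20 to 0.45) at D0 and 0.46 (0.38 to 0.54) at D2. These signs held after rescaling by the median ratio and relative to genes of like length. Pairs within an experiment share the same cell populations, so they are not independent replicates. Between the unperturbed Ctrl and WT cells the *Kmt2c* ratio was -0.84 (-0.95 to -0.73) at D0 and -0.14 (-0.22 to -0.05) at D2.

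*Kmt2d*, the larger paralog and the major H3K4 monomethyltransferase of adipogenesis, had a level that varied by 2.06-fold over the 14 libraries and never by over 2-fold within a comparison. WT cells had an RPKM of 17.4, 17.1 and 15.5 on D0, D2 and D7, and K36M cells 22.2, 13.1 and 14.3. Under ectopic PPARγ, WT cells had 12.1 without and 14.6 with Rosi, and K36M cells 12 and 10.8. Ctrl cells had 16 on D0 and 18.2 on D2, and KD cells 22.3 and 20.2. The D0 levels of K36M and KD cells were the highest, and both were above their own controls. The log2 ratios there were 0.35 (0.31 to 0.40) for K36M against WT and 0.48 (0.43 to 0.52) for KD against Ctrl. On D2 the K36M level was 1.31-fold below the WT level, and the D0 to D2 ratio in K36M cells was -0.76 (-0.82 to -0.70) against -0.02 (-0.07 to 0.03) in WT cells, which became -0.55 and 0.14 relative to genes of like length. The difference between these responses was -0.74 (-0.82 to -0.67), next to a median absolute difference of 0.45 over all genes. In KD cells the D0 to D2 ratio was -0.14 (-0.19 to -0.09), against 0.18 (0.13 to 0.23) in Ctrl cells.

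The proportion of the paralogs differed between the days and treatments. Inside a library, where scaling cancels, the *Kmt2c* level was 0.315 of the *Kmt2d* level at WT D0 and 0.435 at WT D2. The corresponding ratios were 0.221 and 0.498 in K36M cells, 0.191 and 0.373 in Ctrl cells, and 0.173 and 0.461 in KD cells. Under ectopic PPARγ the ratio in WT cells was 0.143 without and 0.243 with Rosi, and in K36M cells 0.117 and 0.197. It was higher at D2 than at D0 in 4 of 4 populations and with Rosi than with DMSO in 2 of 2, with counting intervals that did not overlap within any pair, and *Kmt2d* exceeded *Kmt2c* in every library. On D7 WT cells had a ratio of 0.445 and K36M cells one of 0.285.

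**Figure D4:**
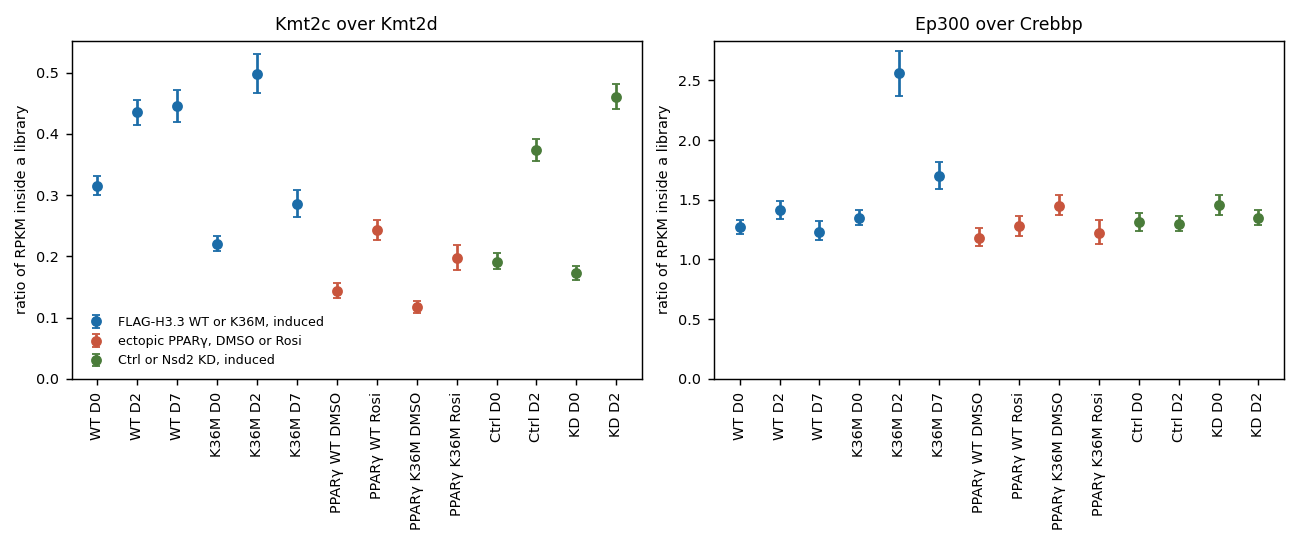
Ratio of RPKM inside each of the 14 libraries (vertical axes, from 0) for *Kmt2c* over *Kmt2d* and for *Ep300* over *Crebbp*, with 95% counting intervals as bars and colours by experiment. The first ratio runs from 0.117 to 0.498 and is higher at D2 than at D0 and with Rosi than with DMSO in each population, while the second lies between 1.18 and 1.70 in 13 libraries and at 2.56 in K36M cells at D2.

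*Kmt2b*, the methyltransferase of promoters, was the least variable of the 8 genes. Its RPKM was lower at D2 than at D0 in all 4 populations, going from 9.89 to 8.16 in WT, from 10.4 to 8.99 in K36M, from 10.1 to 9.22 in Ctrl and from 12.1 to 9.77 in KD cells. The log2 ratios ran from -0.13 in Ctrl to -0.31 in KD cells. Relative to genes of like length the K36M ratio of -0.22 became 0.02, so this direction did not hold there. With PPARγ the 4 levels lay between 7.98 and 9.33, and the K36M to WT ratio with DMSO was -0.00 (-0.10 to 0.10).

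*Paxip1*, which encodes a subunit found only in the KMT2C and KMT2D complexes among the H3K4 methyltransferases, was higher in KD than in Ctrl cells and lower with Rosi, in each case by less than 2-fold. WT cells had an RPKM of 8.85, 11.3 and 12.3 on D0, D2 and D7, and K36M cells 12.2, 12.1 and 12.7. Ctrl cells had 10.9 on D0 and 15.4 on D2, and KD cells 15.5 and 21.6, so KD cells were higher on both days. The log2 ratio of KD to Ctrl was 0.51 (0.39 to 0.63) at D0 and 0.48 (0.39 to 0.58) at D2. K36M cells were also higher at D0, by 0.47 (0.34 to 0.59), but the ratio was 0.09 (-0.04 to 0.23) at D2 and 0.05 (-0.09 to 0.19) at D7, and the latter was below 0 after rescaling by the median ratio. Between the unperturbed Ctrl and WT cells the *Paxip1* ratio was 0.30 (0.17 to 0.42) at D0 and 0.45 (0.33 to 0.56) at D2. With ectopic PPARγ the RPKM of WT cells was 11.8 without and 10.5 with Rosi, and that of K36M cells 10.6 and 7.75. The Rosi ratio was -0.17 (-0.29 to -0.04) in WT and -0.45 (-0.60 to -0.30) in K36M cells, opposite in sign to that of *Kmt2c*. The ratio of *Paxip1* to *Kmt2d* inside a library ran from 0.510 at WT D0 to 1.07 at KD D2.

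*Ep300*, encoding the acetyltransferase p300, was higher with PPARγ ligand in WT cells and near its DMSO level in K36M cells. Under ectopic PPARγ, WT cells had an RPKM of 11.7 without and 18.0 with Rosi, and K36M cells 14.1 and 13.7. The Rosi log2 ratio was 0.62 (0.54 to 0.70) in WT cells and -0.05 (-0.14 to 0.04) in K36M cells, and the responses differed by -0.67 (-0.79 to -0.54). Genes nearest to *Ep300* in length had medians of 0.35 and -0.10, which leaves 0.27 and 0.06. Without ectopic PPARγ, WT cells had 23.6, 21.7 and 20.2 on D0, D2 and D7, and K36M cells 29.0, 25.5 and 24.2. *Ep300* was thus higher in K36M than in WT cells at every day, by 0.30 (0.24 to 0.36), 0.23 (0.16 to 0.30) and 0.26 (0.18 to 0.34). It was also higher with DMSO, by 0.27 (0.19 to 0.35), and lower with Rosi, at -0.40 (-0.49 to -0.31). In the Rosi pair, genes of like length had a median of -0.32, which leaves -0.08. Ctrl cells had 18.3 on D0 and 22.9 on D2, and KD cells 20.8 and 32.8, the highest value of the 8 genes in any library. The KD to Ctrl ratio was 0.18 (0.11 to 0.26) at D0 and 0.52 (0.46 to 0.58) at D2.

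*Crebbp*, encoding the related acetyltransferase CBP, had the largest difference downwards among the 136 ratios of the 8 genes. K36M cells had an RPKM of 21.6, 9.97 and 14.2 on D0, D2 and D7, next to 18.6, 15.4 and 16.3 in WT cells. The K36M D2 library was low in comparison with both K36M D0 and WT D2. The D0 to D2 ratio was -1.11 (-1.22 to -1.01) in K36M cells, 2.16-fold, against -0.27 (-0.35 to -0.19) in WT cells, and the difference between these responses was -0.84 (-0.97 to -0.71). The 200 genes nearest to *Crebbp* in length had a median of -0.34 in K36M cells, which leaves -0.78 and is below 2-fold. At D2 the K36M to WT ratio was -0.63 (-0.74 to -0.52). Ctrl and KD cells differed in the other direction, with an RPKM of 14 on D0 and 17.6 on D2 in the former and of 14.3 and 24.4 in the latter. Under ectopic PPARγ, WT cells had 9.93 without and 14.1 with Rosi, and K36M cells 9.73 and 11.2. The ratios were 0.51 (0.41 to 0.60) and 0.20 (0.09 to 0.31), and relative to genes of like length both became 0.26. The acetyltransferases stayed in a narrow proportion apart from this library, since *Ep300* was between 1.18-fold and 1.70-fold of *Crebbp* in 13 libraries and 2.56-fold in K36M cells at D2.

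*Med1*, encoding the Mediator subunit that binds ligand-bound nuclear receptors, was lowest in the cells with ectopic PPARγ by the transcript used here. There, WT cells had an RPKM of 7.40 without and 9.15 with Rosi, and K36M cells 9.01 and 8.41. That experiment has no library without ectopic PPARγ, so PPARγ cannot be told apart from other differences between the experiments. In the time course, WT cells had 15.1, 17.5 and 14.7 on D0, D2 and D7, and K36M cells 17.9, 14.7 and 12.8. Ctrl cells had 11.2 on D0 and 18.2 on D2, and KD cells 10.2 and 16.3. *Med1* was higher at D2 than at D0 in WT, Ctrl and KD cells and lower in K36M cells. The log2 ratios were 0.22 (0.13 to 0.31), 0.70 (0.60 to 0.79) and 0.68 (0.57 to 0.79) in the former and -0.28 (-0.39 to -0.18) in K36M cells. *Med1* was also the only one of the 8 genes below its control in KD cells at both days with intervals clear of 0, at -0.14 (-0.26 to -0.03) and -0.16 (-0.25 to -0.07). It is the only member with several transcripts in the tables. The 2 of similar length, 6383 and 6518 bases, had nearly the same values. The short form of 2821 bases had an RPKM of 12.2 on D0 and 14.6 on D2 in WT cells. In K36M cells it had 14 and 9.62, the same directions. At D0 it was 9.96 in Ctrl and 9.44 in KD cells, but at D2 it was 14.9 and 15.4. The lower KD level at D2 was thus not shared by the short form. The short form was also not lowest in all cells with ectopic PPARγ. It had 10.1 in WT cells with Rosi, against 9.20 in K36M cells at D7. With Rosi in K36M cells it went from 8.93 to 9.13, opposite to the transcript used here. Reads that these overlapping transcripts share cannot be assigned to 1 of them.

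*Kdm1a*, encoding the demethylase LSD1, was lower at D2 than at D0 in all 4 populations, though in Ctrl cells the counting interval included 0. WT cells had an RPKM of 21.6, 18.8 and 14.9 on D0, D2 and D7, and K36M cells 25.9, 14.5 and 19.3. Ctrl cells had 24.2 on D0 and 22.9 on D2, and KD cells 26.5 and 21.4. The D0 to D2 log2 ratio was -0.21 (-0.32 to -0.09) in WT, -0.84 (-0.98 to -0.70) in K36M, -0.08 (-0.19 to 0.03) in Ctrl and -0.31 (-0.42 to -0.20) in KD cells. K36M cells on D2 had the lowest level of the 14 libraries, and the D7 level was 0.37 (0.22 to 0.53) above that of WT cells. In the presence of ectopic PPARγ, WT cells had 25.1 without and 21.4 with Rosi, and K36M cells 23.6 and 25.1. The Rosi response of *Kdm1a* in K36M cells was above that in WT cells by 0.32 (0.16 to 0.48), whereas that of the other 7 genes was below it. Relative to genes of like length the K36M response was above the WT response for 6 of 8.

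**Figure D5:**
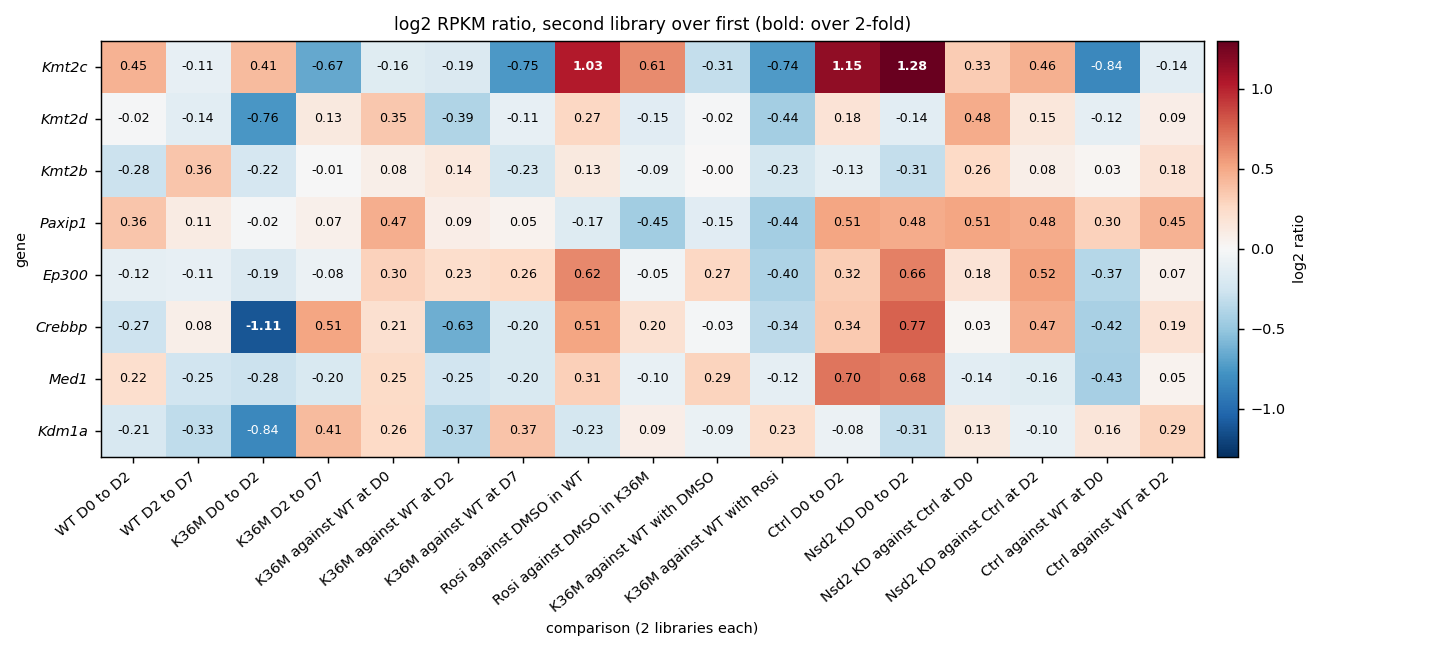
Log2 RPKM ratio of the 8 genes (rows) in the 17 comparisons (columns), second library over first, printed in each cell and coloured from blue (lower) to red (higher), with bold for over 2-fold. *Kmt2c* is above 0 in all D0 to D2 and Rosi columns and below 0 in all 5 columns of K36M against WT, and *Kdm1a* is below 0 in all 4 D0 to D2 columns.

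WT and Ctrl cells are the unperturbed populations of their experiments, and their courses differed for several of the 8 genes. From D0 to D2, *Kmt2c*, *Paxip1* and *Med1* were higher in both WT and Ctrl cells, and *Kmt2b* and *Kdm1a* lower in both. *Ep300* was lower in WT, at -0.12 (-0.18 to -0.06), and higher in Ctrl cells, at 0.32 (0.25 to 0.39). *Crebbp* did likewise, at -0.27 (-0.35 to -0.19) and 0.34 (0.25 to 0.42), and relative to genes of like length the WT values were 0.00 and -0.03. The Ctrl response was above the WT response for 8 of 8 genes, by a median of 0.32 and by up to 0.70 (0.56 to 0.84) for *Kmt2c*, next to a median of 0.09 over 11536 genes. Relative to genes of like length it was above for 5 of 8, by a median of 0.07, and *Kmt2b*, *Paxip1* and *Kdm1a* turned. The absolute difference had a median of 0.32 over the 8 genes and 0.43 over all genes. The vectors differed between the experiments and cannot be told apart from other differences between these libraries. By comparison, the K36M response from D0 to D2 was below the WT response for 7 of 8 genes, with a median difference of -0.44 next to -0.01 over all genes. It was below for 6 after rescaling by the median ratio, and for 5 relative to genes of like length, where *Kmt2c* and *Ep300* turned. The absolute difference between the K36M and WT responses had a median of 0.44 over the 8 genes and 0.45 over all genes. The KD response differed from the Ctrl response by a median absolute 0.21, next to 0.39 over all genes. The Rosi response in K36M cells was below that in WT cells for 7 of 8 genes. The median difference was -0.36 next to -0.10 over 11256 genes, and the median absolute difference 0.36 next to 0.37. Relative to genes of like length the order of the K36M and WT responses was not kept. The K36M response was then below for *Ep300* and *Med1* alone, with a median difference of 0.08, and the Rosi ratio was 0.61 in WT and 0.77 in K36M cells for *Kmt2c*, -0.16 and 0.01 for *Kmt2d*, and -0.18 and -0.02 for *Kmt2b*.

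The highest levels were not in the libraries with the highest adipocyte markers. In KD cells at D2 the 5 adipocyte markers summed to 39.4, against 1385 in Ctrl cells, while *Kmt2c*, *Paxip1*, *Ep300* and *Crebbp* had their highest RPKM of all 14 libraries there. Between Ctrl and KD cells, 7 of 8 genes were higher in KD cells at D0 and 6 of 8 at D2, with median log2 ratios of 0.22 and 0.31 next to -0.00 and -0.05 over all genes. K36M cells at D0 showed the same count, 7 of 8 above WT, or 6 after rescaling by the median ratio, with a median of 0.25 next to 0.09 over all genes. The count was 3 of 8 at D2 and at D7, or 2 at D7 after rescaling or relative to genes of like length. The medians were -0.22 and -0.16 next to 0.07 and 0.12. Between the unperturbed populations, Ctrl against WT, 7 of 8 genes were higher at D2, with a median of 0.13 next to -0.14 over all genes. At D0 it was 3 of 8, with -0.24 next to -0.24.

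The partners and opponents of these enzymes were read from a list of 48 other genes, of which 46 were found. The list holds COMPASS subunits, other H3K4 methyltransferase complexes, other coactivators, Mediator with the cohesin loader, H3K4 demethylases with the LSD1 complex, and acetyl readers with corepressors. Over 2-fold there were 0 to 3 of 46 in each comparison, at most 6.52%, below the background shares given above in every comparison. *Ncoa1*, encoding the p160 coactivator SRC-1 that recruits p300, had the largest differences. Under ectopic PPARγ, WT cells had an RPKM of 2.93 without and 15.5 with Rosi, 5.31-fold (log2 2.41, 2.26 to 2.56), and K36M cells 1.76 and 6.58, 3.74-fold (1.90, 1.71 to 2.11). Ctrl cells had 2.76 on D0 and 9.73 on D2, and KD cells 2.04 and 6.68. WT cells had 8.63, 13.1 and 18.2 on D0, D2 and D7, against 6.37, 9.78 and 6.88 in K36M cells. Like *Kmt2c*, *Ncoa1* was thus higher at D2 than at D0 and with Rosi than with DMSO in every population, and its K36M level was over 2-fold below WT at D7 and with Rosi. *Ncoa1* was also over 2-fold lower in Ctrl than in WT cells at D0.

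*Kat2b*, encoding the acetyltransferase PCAF, was over 2-fold higher with Rosi in WT cells, from 4.16 to 9.38, while K36M cells had 3.68 and 4.08 and were over 2-fold below WT with Rosi. It was over 2-fold lower in KD than in Ctrl cells, at 1.78 against 5.69 at D0 and 2.04 against 5.60 at D2. *Kdm1b*, encoding the H3K4 demethylase related to LSD1, differed from D0 to D2 in the direction opposite to *Kdm1a*. It was over 2-fold higher at D2 than at D0 in WT, Ctrl and KD cells, at 11.1 against 5.07, 11.2 against 3.43 and 4.59 against 1.53, and in K36M cells it was 8.11 against 6.54. It was over 2-fold lower in KD than in Ctrl cells at both days, and at WT D7 it was 4.84, over 2-fold below D2. Among the 7 COMPASS subunits, only *Rbbp5* from D0 to D2 in KD cells, from 6.95 to 15.4, and *Pagr1a* between Ctrl and WT cells at D0, 12.5 against 5.63, differed over 2-fold. *Kdm6a*, the H3K27 demethylase of the KMT2C and KMT2D complexes, had an RPKM of 3.24 without and 6.44 with Rosi in WT cells, and K36M cells had 3.29 and 4.59. None of the 12 genes of Mediator and cohesin loading differed over 2-fold in any of the 17 comparisons. In WT cells, *Ncoa3* was also over 2-fold lower from D0 to D2 (10.5 to 5.05) and *Rcor3* over 2-fold higher from D2 to D7 (5.35 to 10.9).

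Over the 14 libraries, the genes with the pattern most like a member were found by Pearson's r of log2 RPKM, centred within each experiment, among the 9618 genes that reached an RPKM of 1 in every library. These are descriptions over libraries that share their experiments. The most alike gene was *Usp9x* for *Kmt2d* (r = 0.89), *Rprd2* for *Kmt2b* (0.87), NR_027770 for *Paxip1* (0.91), *Parg* for *Ep300* (0.92), *Tjp1* for *Crebbp* (0.90), *Nsd1* for *Med1* (0.94) and *Klf16* for *Kdm1a* (0.90). None of these is another member. The closest pair within the group was *Kmt2d* with *Crebbp*, at 0.69, and 69 genes were more alike to *Kmt2d* than *Crebbp* was. For *Kmt2c* the closest member was *Med1*, at 0.65, with 1157 genes more alike.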

How the data were processed

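RNA-Seq was performed on 14 samples with 1 library each. Per the labels and the paper's methods, mRNA was purified with Dynabeads and libraries were sequenced on an Illumina instrument. The submitters' processing notes name CASAVA 1.8.2, SICER and mm9 without a role, and the RNA-Seq aligner and counter are not given in the sources used here. The authors deposited RPKM for 29082 RefSeq transcripts per library. Division by length and by mapped reads scales levels for both, but a few very high transcripts lower all others in a library. Ratios still differed with transcript length, as with Rosi above. Whether levels of long and short transcripts are comparable was not checked. Symbols from RefSeq (GRCm38.p6) were found for 28432 transcripts (97.8%), and for a gene with several transcripts the one highest on average over the 14 libraries was taken, giving 23109 genes.

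Whole reads were recovered from the RPKM for 28221 of 28221 transcripts above 0, with a largest relative difference of 5.0e-12 between the rebuilt and deposited values, and reads gave 95% Clopper-Pearson intervals. Mapped reads ranged from 12213559 to 24365867, with a median of 18383782. A gene was called at an RPKM ratio over 2-fold, with 1.5-fold as a second threshold and an RPKM of at least 1 in either library for the background. With 1 library per condition there was no test. Whether libraries of 1 experiment came from separate cultures is not stated. Intervals for differences between responses used the normal approximation to counting error. The recovery, calls and intervals were tested on simulated data. The members and lists were chosen with earlier results of these data known. All members were named, as were genes of the pathway list over 2-fold with a counting interval excluding no difference (at most the 5 largest per comparison), partners of a member, check genes and the gene with the most alike pattern per member, and some genes that this rule names are not reported here. Promoter sequences came from RefSeq (GRCm38.p6) and gene positions from GENCODE M1 (mm9). Alternatives were a fold of 1.5, pseudocounts of 0.1 and 1, rescaling by the median ratio, other transcript choices, at least 20 reads, any RPKM above 0 for the background and, chosen after seeing the data, subtraction of the median of the 200 genes nearest in length. *Kmt2a* and *Setd1b* were not analysed here. Python 3.11.15, numpy 2.4.6, pandas 2.3.3, scipy 1.17.1 and matplotlib 3.10.9 were used.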

Additional observations from a re-analysis of the deposited data

Results flagged for a closer look

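In 5 cases a gene had opposite signs in the 2 populations of 1 experiment, and in another 2 in WT and Ctrl cells of separate experiments, with both 95% counting intervals clear of 0. Each population had 1 library per condition, and the difference was not tested across replicates. *Med1* from D0 to D2 had a log2 ratio of 0.22 (0.13 to 0.31) in WT and -0.28 (-0.39 to -0.18) in K36M cells. *Kmt2d* from D2 to D7 had -0.14 (-0.20 to -0.09) in WT and 0.13 (0.06 to 0.20) in K36M cells, and the latter became -0.00 relative to genes of like length. *Kdm1a* over the same days had -0.33 (-0.48 to -0.18) in WT and 0.41 (0.25 to 0.58) in K36M cells. *Kmt2d* with Rosi had 0.27 (0.22 to 0.33) in WT and -0.15 (-0.22 to -0.08) in K36M cells, and relative to genes of like length these became -0.16 and 0.01. *Kmt2d* from D0 to D2 had 0.18 (0.13 to 0.23) in Ctrl and -0.14 (-0.19 to -0.09) in KD cells. Between the experiments, *Ep300* from D0 to D2 had -0.12 (-0.18 to -0.06) in WT and 0.32 (0.25 to 0.39) in Ctrl cells, and the former became 0.00 relative to genes of like length. *Crebbp* had -0.27 (-0.35 to -0.19) in WT and 0.34 (0.25 to 0.42) in Ctrl cells.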

How the results depend on the processing

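No paired analysis was possible because each condition has 1 library, and no library could be left out for the same reason. With a fold of 1.5 in place of 2, the counts of the 8 genes became 3 from D0 to D2 in K36M cells, 4 in KD cells and 2 in Ctrl cells, 2 with Rosi in WT cells, and 1 each for D2 to D7 in K36M cells, Rosi in K36M cells, K36M against WT at D2, at D7 and with Rosi, and Ctrl against WT at D0. *Kmt2c* with Rosi in WT cells, at 2.04-fold, was the closest to the threshold, and that count became 0 with a pseudocount of 1, a pseudocount of 0.1, rescaling by the median ratio or subtraction of genes of like length. The count from D0 to D2 became 0 in Ctrl cells with a pseudocount of 1, and 0 in K36M cells relative to genes of like length. With every gene above an RPKM of 0 as background, 26.8% to 41.4% of genes were over 2-fold in the 17 comparisons, against 8.20% to 28.6%. Choice of transcript and a minimum of 20 reads changed no count. Of the 136 log2 ratios, 129 kept their sign after rescaling by the median ratio, with shifts of up to 0.22, and 117 did relative to genes of like length, with shifts of up to 0.57. All 136 kept it under each of the other settings. The ratios that changed sign after rescaling were *Kmt2b* for K36M against WT at D0 (0.08 to -0.01) and with DMSO (-0.00 to 0.03), *Crebbp* for the latter (-0.03 to 0.00), *Kmt2d* for Ctrl against WT at D0 (-0.12 to 0.10) and for K36M against WT with DMSO (-0.02 to 0.01), and *Paxip1* from D0 to D2 in K36M cells (-0.02 to 0.04) and for K36M against WT at D7 (0.05 to -0.05). Depth does not limit these ratios, since every gene had at least 453 reads, but the absence of replicates does.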
